A study of Rattus norvegicus with 9 samples.

Results

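The synaptic vesicle and release machinery was described across the thalamus of young rats as a set of 41 named genes that cover vesicle membrane proteins, calcium sensors, SNARE proteins and their regulators, active zone proteins and endocytosis proteins. Of the 41 genes, 40 had at least 1 probe set with that single symbol in the platform annotation, 63 probe sets in all, out of 14217 genes and 31042 rat probe sets measured. Erc2 had no such probe set and has no value here. Each gene was represented by its probe set of highest mean over the 9 arrays, and every other probe set of the gene was examined beside it.

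The samples were thalamus RNA of male Wistar rats with no genetic modification named. At 3 weeks of age all rats began on powder, and after 2 days weight-matched groups were given solid chow (4 arrays) or more powder (5 arrays) for another 8 days; the age label of all samples is 5 weeks. The study's question was what short-term chewing, which solid feed calls for, does to the young thalamus. The labels speak of 10 rats and do not tie each of the 9 arrays to its animal, so p-values measure the spread between these arrays, which may in part be technical. In a piece of whole tissue, fewer cells of a type and less RNA per cell cannot be told apart.

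A synaptic vesicle is filled with transmitter, docked and primed at the active zone, and fused with the membrane when calcium enters the terminal. Fusion is driven by the SNARE proteins synaptobrevin (Vamp1, Vamp2), syntaxin (Stx1a) and Snap25, is triggered by synaptotagmin and held ready by complexin. Nsf and its adaptors then pull the spent SNARE complex apart, and dynamin, amphiphysin and synaptojanin help to retrieve the membrane. In the thalamus this machinery works in the inputs from cortex, brainstem and reticular nucleus, while the relay neurons release most of their own transmitter in the cortex. The arrays measured RNA in the thalamus tissue, and neither protein nor release at any of these terminals was measured.

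The start regions of 4 genes are shown because 3 of them (Syt1, Syn2, Nsf) hold probe sets that were higher under chow and the other (Syp) was lower. They are RefSeq sequences of build GRCr8, 250 bases up to the start site and read 5′ to 3′ along the gene; the array itself names no build. Capitals mark each GGGCGG or CCGCCC, the GC box that transcription factors of the Sp family can bind, with overlapping matches counted separately. The lines give Syt1 at chr7:46244214-46244463, minus strand, Syn2 at chr4:149858669-149858918, plus strand, Nsf at chr10:89357384-89357633, minus strand, and Syp at chrX:17536450-17536699, minus strand.
Syt1: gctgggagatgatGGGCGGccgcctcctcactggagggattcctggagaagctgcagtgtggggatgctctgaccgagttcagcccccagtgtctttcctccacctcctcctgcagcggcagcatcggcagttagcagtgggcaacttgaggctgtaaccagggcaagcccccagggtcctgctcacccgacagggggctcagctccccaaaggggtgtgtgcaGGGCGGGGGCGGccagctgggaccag
Syn2: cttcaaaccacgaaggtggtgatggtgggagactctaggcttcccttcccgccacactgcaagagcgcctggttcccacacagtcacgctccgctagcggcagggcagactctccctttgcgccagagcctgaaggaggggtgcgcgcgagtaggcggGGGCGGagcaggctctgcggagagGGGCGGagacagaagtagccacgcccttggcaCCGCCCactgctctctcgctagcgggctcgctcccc
Nsf: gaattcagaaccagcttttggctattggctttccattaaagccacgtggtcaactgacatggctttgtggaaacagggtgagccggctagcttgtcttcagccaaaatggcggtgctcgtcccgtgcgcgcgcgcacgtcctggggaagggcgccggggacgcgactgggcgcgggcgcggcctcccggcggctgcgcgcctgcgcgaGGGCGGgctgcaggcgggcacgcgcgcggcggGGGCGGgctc
Syp: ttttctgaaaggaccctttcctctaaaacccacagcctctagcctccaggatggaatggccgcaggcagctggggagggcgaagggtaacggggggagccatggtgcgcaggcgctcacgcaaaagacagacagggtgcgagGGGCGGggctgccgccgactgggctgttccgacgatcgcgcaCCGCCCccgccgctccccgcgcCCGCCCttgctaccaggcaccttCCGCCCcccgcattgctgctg

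GC boxes numbered 3 in the Syt1 window, 3 in Syn2, 2 in Nsf and 4 in Syp. The box was thus present in the windows of 3 genes with higher probe sets and of Syp, 1 of 2 lower genes. Snap25, the other lower gene, was not among the genes found to hold GGGCGG, but whether it had a window to search is not shown. Its start region is therefore left unread here. Syt4, the other gene with a higher probe set, held no GGGCGG on either strand in its window, which is not printed here. Among the 32 of the 41 listed genes (Erc2 included) that were matched by symbol in the RefSeq table, whose windows run 300 bases, from 250 before to 50 after the start site, 24 (75%) held GGGCGG on either strand. The share was 57.5% over the 11733 genes of the array with a window and 33.1% over all 33469 windows. None of the 32 held TATAAA on either strand, against 8.45% of the array genes and 14.2% of all windows, and 3 (Napa, Syn1 and Vamp1) held the cyclic AMP response element TGACGTCA, against 2.86% and 1.83%. The median GC content was 67% for these 32 and 60% for the array genes. These are matches of letters among 9 short strings searched, and they describe the windows only.

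Most members could not show a change of any size, because the deposited values vary very little. Of all rat probe sets, 84.4% spanned less than 0.01 log2 units over the 9 arrays, with a median span of 0.000475, and they are called compressed here. Of the 63 member probe sets, 41 were compressed and 22 were not. The widest compressed member was Syn1 1369251_a_at at 0.00682 and the narrowest uncompressed one was Snap25 1387073_at at 0.0506. Both lie in the sparse stretch between the main groups of spans. All probe sets of 23 genes were compressed: Syt2, Syt7, Doc2b, Syngr1, Syngr3, Sv2c, Syn1, Syn3, Stx1a, Vamp2, Napa, Napb, Rims1, Rims2, Unc13a, Unc13b, Unc13c, Pclo, Erc1, Ppfia2, Dnm1, Amph and Synj1. For these the table carries a level and no usable size of difference. The other 17 genes had at least 1 uncompressed probe set, and the values below come from those.

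**Figure D1:**
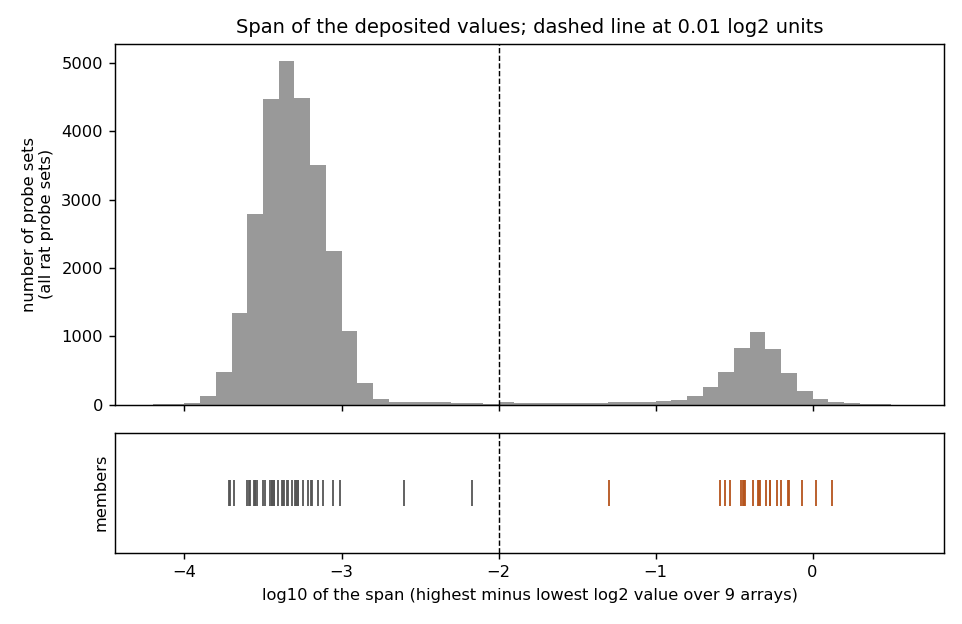
Number of rat probe sets by the log10 of their span, the highest minus the lowest log2 value over the 9 arrays (upper panel), and the spans of the 63 member probe sets, 1 tick each, compressed in grey and uncompressed in orange (lower panel). The spans fall into a large group below the dashed line at 0.01 log2 units and a smaller one above it, and 22 member probe sets lie above.

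The arrays were not alike within the groups. Chow 1 stood apart on striatal, relay neuron and inhibitory neuron markers. The summed linear signal of 6 striatal markers was 3464 there, against 1354 to 1666 on the other 8 arrays. That of 10 relay neuron markers was 11525 against 14650 to 16889, and that of 7 inhibitory neuron markers 6709 against 4731 to 5593. Of the 7, Pvalb and Vip went the other way and were lowest on chow 1 (log2 values 9.07 and 9.06). Hypothalamic markers varied on other arrays too, with a summed signal of 1962 to 4652 under chow and 980 to 4702 under powder. Among them, Pmch was at 11.22, 10.28, 10.11 and 11.24 on chow 1 to 4. On powder 1 to 5 it was at 8.83, 9.42, 10.93, 10.78 and 8.56. Avp and Oxt were highest on powder 4 (10.37 and 10.42). The part of such tissue in the member values was not tested. Defining thalamic genes were present on all arrays, with Tcf7l2, a transcription factor of thalamic neurons, at 11.47 on chow 1 and 11.86 to 12.15 elsewhere. By summed signal the groups overlapped in 12 of the 13 marker lists, and the exception was the endothelial list, at 2342 to 2499 under chow and 2506 to 2612 under powder. Single uncompressed markers in the overlapping lists could still separate the diets. Gad2 was higher on every chow array than on any powder array (difference 0.60). Tcf7l2 (-0.26), Prox1 (-0.35), Nefm (-0.28) and Aqp4 (-0.14) were lower on every one. Of these, Prox1 and Nefm were called in the fit over genes. The balance of the 3′ and 5′ probe sets of the beta-actin control, a gauge of RNA integrity and of the length of the labelled RNA, also moved with the diet. Its 3′ minus 5′ difference was 1.52 ± 0.0611 on the 4 chow arrays and 1.65 ± 0.0602 on the 5 powder arrays (mean ± SD, two-sided exact permutation p = 0.0238, adjusted p = 0.0298 over 5 control measures), lowest on chow 3 (1.44), and powder 4 (1.55) lay within the chow range. The actin level itself was higher under chow, by 0.13 on the 3′, 0.19 on the middle and 0.26 on the 5′ probe set (exact permutation, adjusted p = 0.0265 each). The GAPDH 5′ control differed by 0.094 (exact permutation, adjusted p = 0.143).

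At the level of genes, few members differed between the diets. In limma's test over all 14217 genes with Benjamini-Hochberg adjustment, 2 of the 40 members were higher under chow (5%, background 14.2% of all genes) and 3 were lower (7.5%, background 18.8%). Of these 5, Unc13a (0.00032) and Erc1 (-0.00027) were compressed, which leaves Syt1 higher and Syp and Snap25 lower. Of the 14 members whose representative probe set was uncompressed, 1 was called higher (background among such genes 9.03%) and 2 lower (background 40.2%), with a median log2 difference of -0.041 against -0.12 for all 2414 such genes. The split depended on scaling, for the members as for the whole array. Quantile normalization gave 20 members higher (50%, against 58.6% of all genes) and 1 lower (2.5%, against 7.03%). Subtracting array medians gave 28 higher (70%, against 85.2%) and 3 lower (7.5%, against 7.97%). That step moved every difference, those of compressed probe sets included, upward by the same amount.

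Probe set by probe set, the share of member probe sets called higher was near that of the array, and the share called lower was smaller. In the test over all 31042 rat probe sets, 11 of the 63 were higher under chow (17.5%, background 17.9%). The lower ones numbered 3 (4.76%, background 16.7%). Of these, 5 of the higher and 1 of the lower were compressed. The rescalings moved most of the array to higher. Quantile normalization gave 34 member probe sets higher (54%, against 50.3% of all probe sets) and 1 lower (1.59%, against 5.97%), and subtracting array medians gave 49 higher (77.8%, against 87.6%) and 3 lower (4.76%, against 6.9%). Among the 22 uncompressed ones, 6 were called higher (27.3%, background 16.1%) and 2 lower (9.09%, background 38.8%), and 14 were not called. The groups did not overlap on 4 with chow above (background 14.1%) and on 2 with chow below (background 36%). The median log2 difference of the 22 was 0.052, against -0.11 for all 4849 uncompressed probe sets. The 6 higher probe sets belong to 4 genes, Syt1, Syt4, Syn2 and Nsf, and the 2 lower ones to Syp and Snap25. All 8 kept their direction under both rescalings, and 7 of the 8 remained called under each, the exception being Snap25 (adjusted p = 0.249 and 0.066 by limma).

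**Figure D2:**
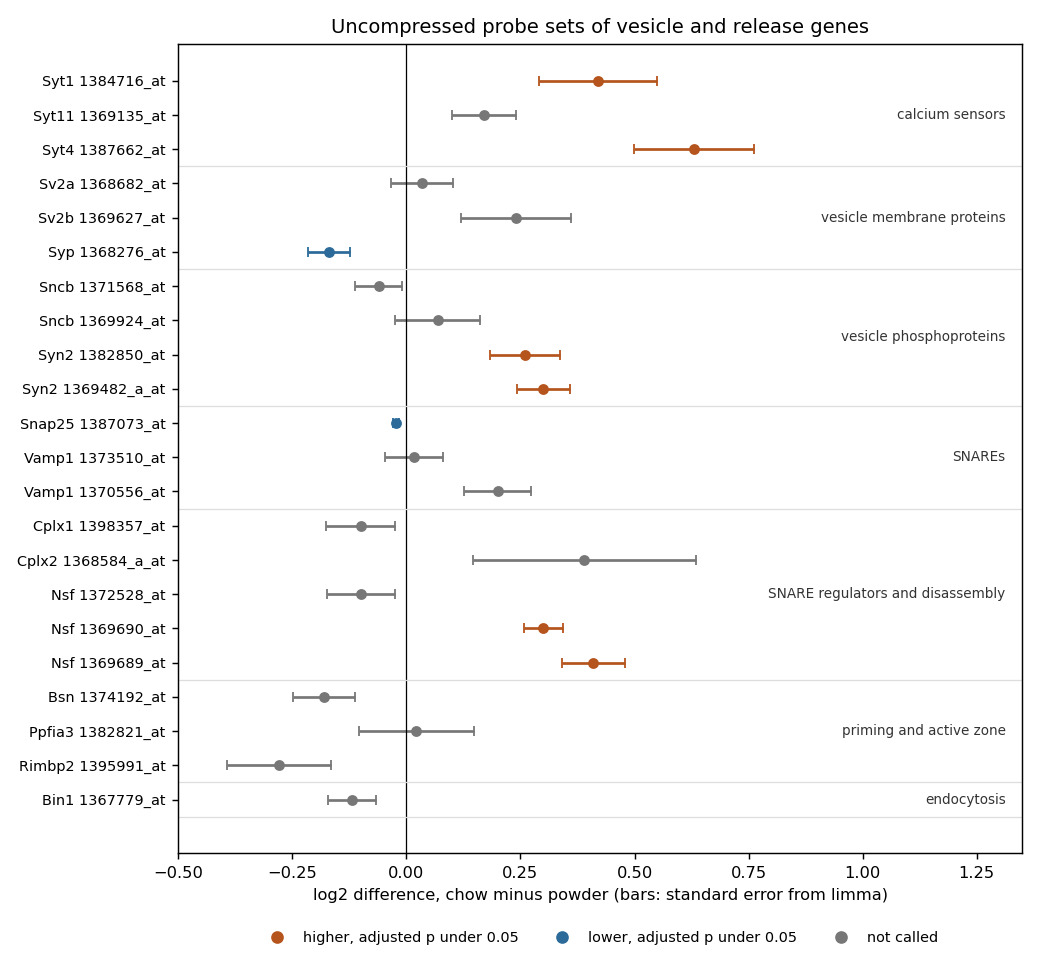
Log2 difference, chow minus powder, with its standard error from limma for each of the 22 uncompressed member probe sets, grouped by role; orange marks those called higher, blue those called lower and grey those not called at an adjusted p under 0.05. Differences run from -0.28 (Rimbp2) to 0.63 (Syt4 1387662_at), and the 3 probe sets of Nsf lie on both sides of 0.

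The largest differences were on Syt4 and Syt1, in the group listed as calcium sensors, with Nsf 1369689_at (0.41) close behind. Syt4, an atypical synaptotagmin found on dense-core vesicles and regulated by activity, had 1 compressed probe set of higher mean level and 1 uncompressed one, 1387662_at. On the latter the log2 values were 9.17, 8.71, 9.003 and 8.70 on chow 1 to 4 and 8.12, 8.18, 8.25, 8.58 and 8.20 on powder 1 to 5. Every chow array lay above every powder array, with powder 4 nearest. The difference was 0.63 ± 0.132 (1.55-fold, limma adjusted p = 0.0127), and it was 0.54 without chow 1 and called with any 1 array left out (adjusted p from 0.0104 to 0.0319). On the compressed probe set, 1375877_at, the difference was -0.000099 and was not called, so the gene counted as not called at the level of genes.

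Syt1, the calcium sensor that triggers fast release, had a single probe set, 1384716_at, at 8.99, 8.70, 9.16 and 8.80 on the chow arrays and 8.40, 8.30, 8.45, 8.82 and 8.47 on the powder arrays. The groups overlapped, because powder 4 lay above chow 2 and chow 4. The difference was 0.42 ± 0.13 (1.34-fold, limma adjusted p = 0.0409). In the fit over genes it was not called without any 1 of chow 1, chow 3, chow 4 or powder 1, 2, 3 or 5 (adjusted p from 0.0613 to 0.0948).

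Syt11, a synaptotagmin that does not bind calcium, was at 8.27, 7.99, 8.04 and 7.99 under chow and 7.84, 7.82, 7.99, 7.88 and 7.98 under powder. Only chow 1 and chow 3 stood clear of the powder arrays, and the difference of 0.17 ± 0.0691 was not called (limma adjusted p = 0.0879). With chow 1 left out it was 0.11. Doc2b, a high-affinity calcium sensor, Syt2, the fast sensor of hindbrain and interneuron terminals, and Syt7, the slow sensor of asynchronous release, were compressed. One compressed Syt7 probe set, 1370515_x_at, was called higher with a difference of 0.00015.

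Among the synapsins, which tether vesicles to the cytoskeleton and to each other, Syn2 was higher on both of its uncompressed probe sets. On 1369482_a_at the chow arrays were at 9.09, 9.09, 9.18 and 8.997 and the powder arrays at 8.74, 8.65, 8.83, 8.91 and 8.83, with no overlap. The difference was 0.30 ± 0.0585 (1.23-fold, limma adjusted p = 0.0103), called with any 1 array left out (adjusted p from 0.0113 to 0.0272). On 1382850_at the chow arrays were at 9.23, 9.02, 9.28 and 9.12 and the powder arrays at 8.83, 8.74, 8.95, 9.05 and 8.93. Here powder 4 lay above chow 2, and the difference was 0.26 ± 0.0766 (1.2-fold, limma adjusted p = 0.0359). That call was lost without any 1 of chow 1, chow 3, chow 4 or powder 1, 2, 3 or 5 (adjusted p from 0.0583 to 0.085). With the 3′ minus 5′ actin difference as a covariate, neither probe set was called, at 0.17 and 0.063 (limma adjusted p = 0.179 and 0.614). The probe set of highest mean, 1370431_at, was compressed and not called.

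The differences on the 2 uncompressed Syn2 probe sets could not be told from each other (difference between them 0.039, two-sided exact permutation p = 0.54). Syn1 was compressed on both probe sets, and 1369251_a_at was called higher with a difference of 0.0037. Syn3 was compressed and not called. Sncb, beta-synuclein, a presynaptic protein that binds vesicle membrane, was not called on either uncompressed probe set, at -0.061 ± 0.051 on 1371568_at and 0.069 ± 0.0932 on 1369924_at (limma adjusted p = 0.369 and 0.576). Chow 1 was the lowest of all arrays on both (11.39 and 9.02) and chow 3 the highest (11.67 and 9.47).

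Nsf, the ATPase that disassembles used SNARE complexes, had 3 uncompressed probe sets, which did not move alike. On 1369690_at the values were 11.08, 11.12, 11.19 and 11.07 under chow and 10.87, 10.79, 10.72, 10.90 and 10.80 under powder. The groups were clear of each other and the difference was 0.30 ± 0.0423 (1.23-fold, limma adjusted p = 0.00436), the smallest adjusted p among uncompressed members. On 1369689_at they were 10.36, 10.36, 10.60 and 10.31 against 10.02, 9.99, 9.90, 10.13 and 9.96, again without overlap, and the difference was 0.41 ± 0.07 (1.33-fold, limma adjusted p = 0.00711). Both were called with any 1 array left out (adjusted p up to 0.0135 and 0.0189).

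The third Nsf probe set, 1372528_at, had the highest mean and therefore stood for the gene. Its values were 11.001, 11.07, 11.36 and 11.20 under chow and 11.28, 11.26, 11.21, 11.35 and 11.19 under powder. Chow 1 and chow 2 lay below every powder array, chow 3 above every one and chow 4 among them, and the difference was -0.10 ± 0.0748 (limma adjusted p = 0.317, not called). Within an array, 1369690_at minus 1372528_at was -0.17 to 0.08 under chow and -0.49 to -0.40 under powder, so the probe sets changed unequally (two-sided exact permutation p = 0.00794, the smallest that 4 against 5 arrays allow, adjusted p = 0.0159 over 6 pairs). The same held for 1369689_at minus 1372528_at (difference 0.51) and, by less, for 1369689_at minus 1369690_at (difference 0.11), each with the same exact permutation p and adjusted p. By the median over its probe sets Nsf was at 0.27 (limma adjusted p = 0.00912). The files do not say which part of the transcript each probe set reads.

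**Figure D3:**
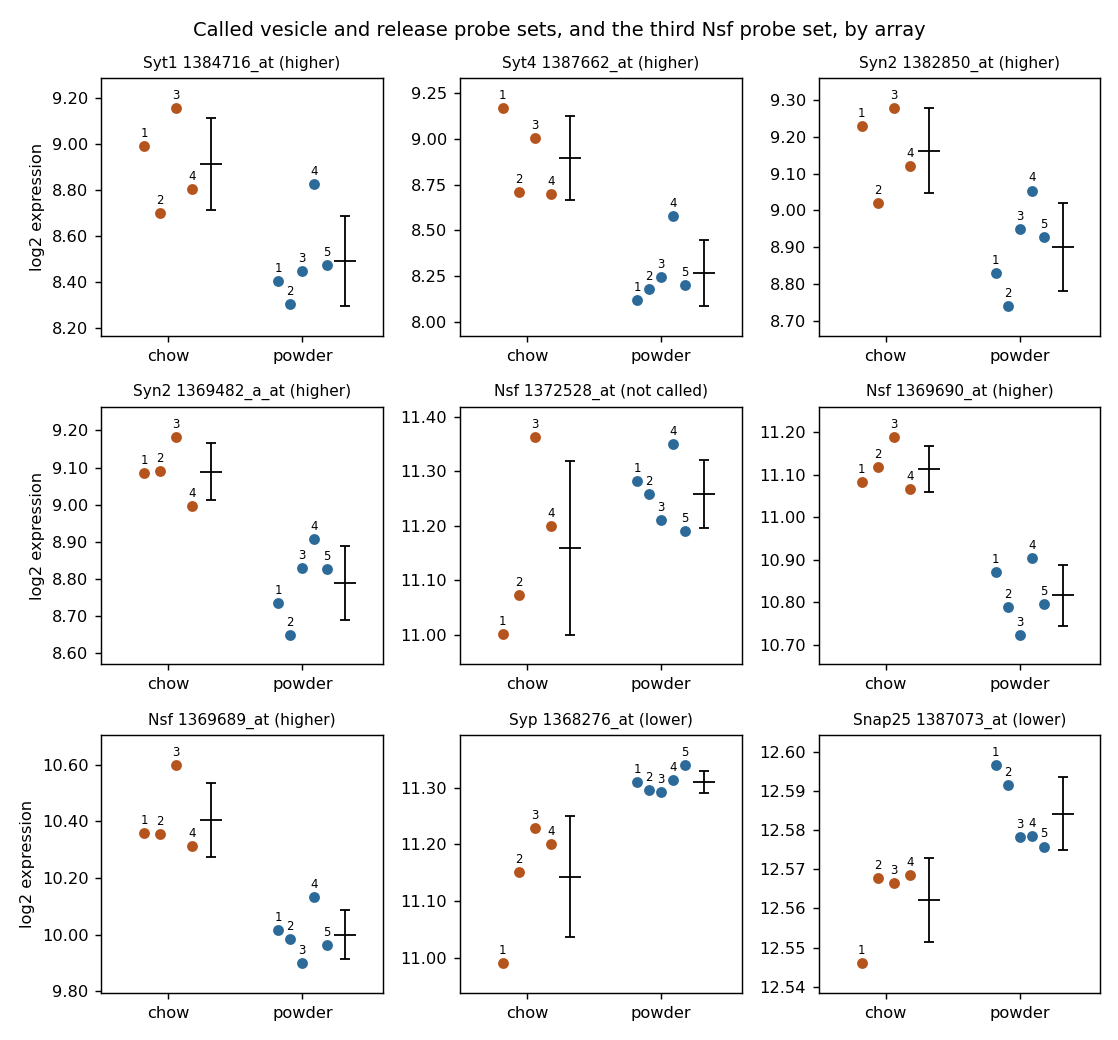
Log2 expression on each array for the 8 uncompressed member probe sets called between the diets and for the third Nsf probe set, which was not called; points are arrays numbered as in the labels, and bars are the group mean ± SD (4 chow, 5 powder). Vertical scales differ between panels. Powder 4 is the highest powder array in each of the 6 panels called higher.

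Complexins, which clamp and promote SNARE fusion, were not called. Cplx2 was at 9.53, 8.65, 8.20 and 8.64 under chow and 8.25, 8.27, 8.48, 8.48 and 8.33 under powder. Its difference of 0.39 ± 0.244 (limma adjusted p = 0.238) rested on chow 1, and without that array it was 0.13. On chow 1 the striatal gene Ppp1r1b, which encodes a dopamine-regulated phosphatase inhibitor, was also highest (9.18 against 7.74 to 8.01 on the other arrays), and its part in the Cplx2 value was not tested. Cplx1 was at 11.60, 11.80, 11.94 and 11.78 under chow and 11.94, 11.96, 11.75, 11.80 and 11.94 under powder, a difference of -0.10 ± 0.076 (limma adjusted p = 0.328) that was -0.038 without chow 1. Napa and Napb, the adaptors of Nsf, were compressed and not called.

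Of the SNARE proteins, Snap25, the plasma membrane SNARE, was called lower by a very small amount. Its values were 12.55 on chow 1, 12.57 on each other chow array and 12.58 to 12.60 on the powder arrays. The groups did not overlap, but the difference was -0.022 ± 0.00649 (0.985-fold, limma adjusted p = 0.0364). In the fit over genes the call was lost without any 1 array other than powder 5 (adjusted p from 0.0519 to 0.0765). It was also lost there with compressed probe sets left out (limma adjusted p = 0.265). Vamp1, synaptobrevin-1, had 2 uncompressed probe sets that were not called. On 1370556_at it was at 9.36, 9.31, 9.48 and 9.28 against 9.29, 8.97, 9.08, 9.22 and 9.22 (0.20 ± 0.0733, limma adjusted p = 0.0675), which passed after quantile normalization (adjusted p = 0.026) and with array medians subtracted (0.0218). On 1373510_at its difference was 0.017 ± 0.0629. Stx1a and Vamp2 were compressed, and 1 Vamp2 probe set, 1371160_at, was called higher with a difference of 0.00032.

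Of 3 uncompressed probe sets of vesicle membrane proteins, 1 was called. Syp, synaptophysin, an abundant integral vesicle protein and a customary marker of synapses, was lower under chow, at 10.99, 11.15, 11.23 and 11.20 against 11.31, 11.30, 11.29, 11.31 and 11.34 under powder. All chow arrays lay below all powder arrays, chow 1 farthest, and the powder arrays were tightly grouped (SD 0.0187, against 0.107 under chow). The difference was -0.17 ± 0.0464 (0.891-fold, limma adjusted p = 0.0304) and was -0.12 without chow 1, still called (adjusted p = 0.0122). In the fit over genes it was not called without chow 2 or without any 1 powder array (adjusted p from 0.0566 to 0.0647).

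The Sv2 proteins, transporter-like glycoproteins of the vesicle, were not called. Sv2b was at 8.74, 9.14, 9.37 and 8.86 under chow on 1369627_at and 8.77, 8.84, 8.74, 8.80 and 8.79 under powder. Chow 2, 3 and 4 lay above every powder array and chow 1 did not, and the difference was 0.24 ± 0.121 (limma adjusted p = 0.156), 0.33 without chow 1 and 0.13 without chow 3. Its probe set of highest mean was compressed. Sv2a, the binding site of the antiepileptic drug levetiracetam, ranged from 10.39 to 10.63 under chow and from 10.33 to 10.59 under powder (0.034 ± 0.068). Sv2c and the synaptogyrins Syngr1 and Syngr3 were compressed and not called.

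Active zone and priming proteins, which dock vesicles opposite calcium channels, gave no called uncompressed probe set. Rimbp2, which links Rim to calcium channels, was at 9.14, 8.71, 8.89 and 9.13 under chow and 9.20, 9.21, 9.35, 9.43 and 9.04 under powder. Powder 5 fell among the chow arrays, and the difference was -0.28 ± 0.114 (limma adjusted p = 0.0955). Bsn, the scaffold bassoon, was at 10.19, 10.55, 10.49 and 10.37 under chow and 10.61, 10.59, 10.58, 10.54 and 10.58 under powder. Only chow 2 reached the powder range, and the difference was -0.18 ± 0.0684 (limma adjusted p = 0.0781), -0.11 without chow 1.

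With array medians subtracted both Bsn (limma adjusted p = 0.0385) and Rimbp2 (0.046) passed the threshold in the fit over genes. Ppfia3, a liprin that organises the active zone, ranged from 8.25 to 8.84 under chow and from 8.46 to 8.72 under powder (0.022 ± 0.126). Of the compressed probe sets in this group, Unc13a, the priming factor Munc13-1, was called higher (0.00032) and Erc1 lower (-0.00027), and a second Rimbp2 probe set, 1397267_at, was called higher (0.00021). Erc1 turned to higher under both rescalings, at 0.02 and 0.0063. Rims1, Rims2, Unc13b, Unc13c, Pclo and Ppfia2 were not called.

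Endocytosis genes gave no call. Bin1, amphiphysin 2, which bends membrane and is also abundant outside neurons, was at 10.70, 10.89, 10.83 and 10.88 under chow and 10.92, 10.93, 10.92, 10.88 and 11.07 under powder. Only chow 2 lay above the lowest powder array, powder 4, and the difference was -0.12 ± 0.0525 (limma adjusted p = 0.111). Dnm1, the neuronal dynamin that cuts the vesicle neck, Amph, amphiphysin 1, and Synj1, the phosphatase that helps to strip the clathrin coat, were compressed and not called.

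A wider list of other vesicle cycle genes was read in the same fit over genes. Of 93 listed genes, 80 were measured, 8 were higher under chow and 14 lower (backgrounds 14.2% and 18.8%). Among the 23 uncompressed ones 4 were higher and 6 lower (backgrounds 9.03% and 40.2%). Those higher were Pacsin1, a membrane-bending partner of dynamin (0.32), Dnm3, a brain dynamin (0.30), Itsn2, an endocytic scaffold (0.25), and Sh3gl3, an endophilin (0.04). Those lower were the adaptor subunits Ap3b2 (-0.27) and Ap2b1 (-0.21), Apba1, a Munc18-binding adaptor (-0.21), Eps15, an endocytic scaffold (-0.19), Napg, gamma-SNAP (-0.17), and Ppfibp1, a liprin-binding protein (-0.15). The second uncompressed Napg probe set, 1384255_at, was at 0.24 and not called (limma adjusted p = 0.0774 over probe sets). The limma adjusted p of the 10 genes ran from 0.00662 (Eps15) to 0.0433 (Apba1). A second Itsn2 probe set, 1393625_at, was called the other way at -0.32 (limma adjusted p = 0.00332 over probe sets), and another, 1395799_at, at 0.31.

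Single arrays stood out on the members. Chow 3 was the highest of all arrays on 11 of the 22 uncompressed member probe sets (50%), against 10.5% of all 4849 uncompressed probe sets. Powder 2 was the lowest on 7 (31.8%), against 13.6% of all. Chow 1 was the lowest on 9 (40.9%), near the 36.8% of all, and the highest on 3. Chow arrays varied more than powder arrays on 17 of the 22 (77.3%, near the 73.1% of all), with a median within-group SD of 0.132 and 0.0949. These member probe sets share 9 libraries and several share a gene, so the counts are descriptions.

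**Figure D4:**
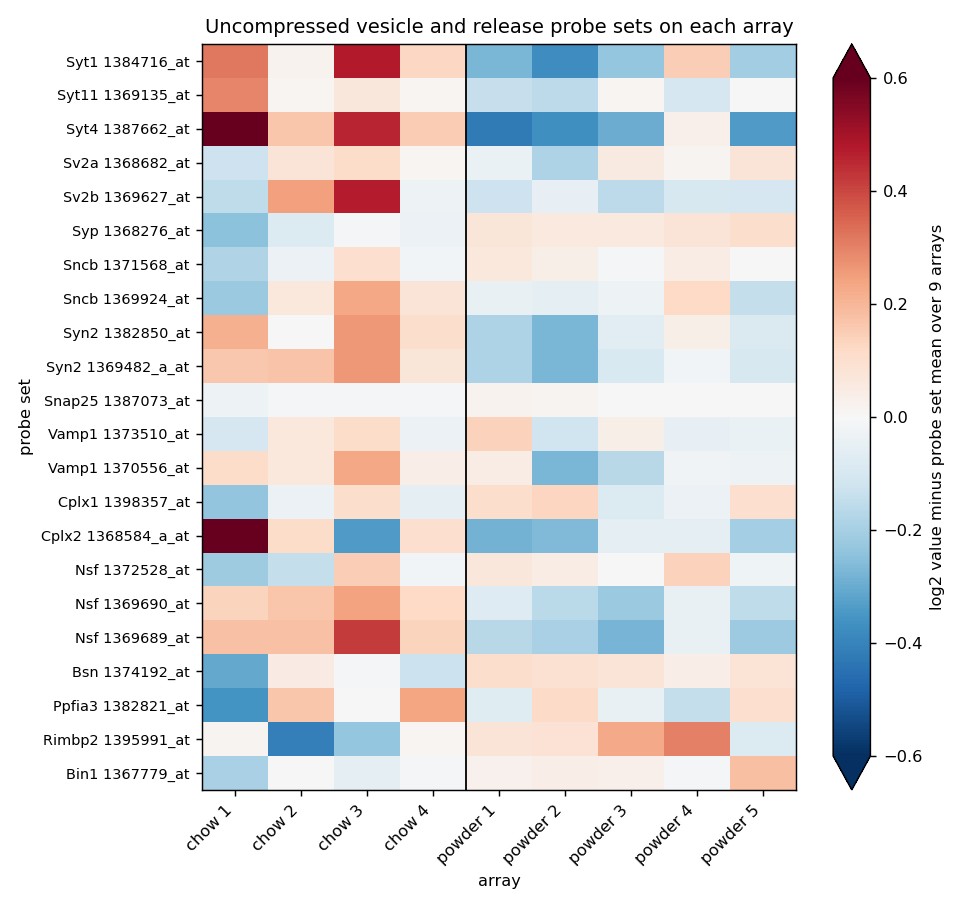
Log2 value minus the probe set's mean over the 9 arrays, for the 22 uncompressed member probe sets (rows, ordered by role) on each array (columns); red is above and blue below the mean, and colours saturate beyond 0.6. Chow 3 is red in many rows, and chow 1 is red for Syt1, Syt4 and Cplx2 and blue for Syp, Cplx1, Bsn and Ppfia3.

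The highest array of each diet on most of the called probe sets was the one of smallest beta-actin difference. Among the 6 probe sets called higher, powder 4 was the highest powder array on 6 of 6, against 48.2% of the 782 uncompressed probe sets called higher, and chow 3 was the highest chow array on 5, against 27.5%. These are the arrays of smallest 3′ minus 5′ actin difference in their groups, 1.55 and 1.44. With that difference as a covariate in limma, 0 of the 8 called uncompressed member probe sets passed (adjusted p from 0.0794 to 0.772). The Syt1 difference became 0.047, that of Syt4 1387662_at 0.33, those of Nsf 1369690_at and 1369689_at 0.22 and 0.23, and those of Syn2 1369482_a_at and 1382850_at 0.17 and 0.063. The Syp difference became -0.20 and that of Snap25 -0.018. Over all genes the calls then numbered 724 in place of 4684. Since the actin measure itself differed between the diets, diet and this measure cannot be told apart in that fit.

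**Figure D5:**
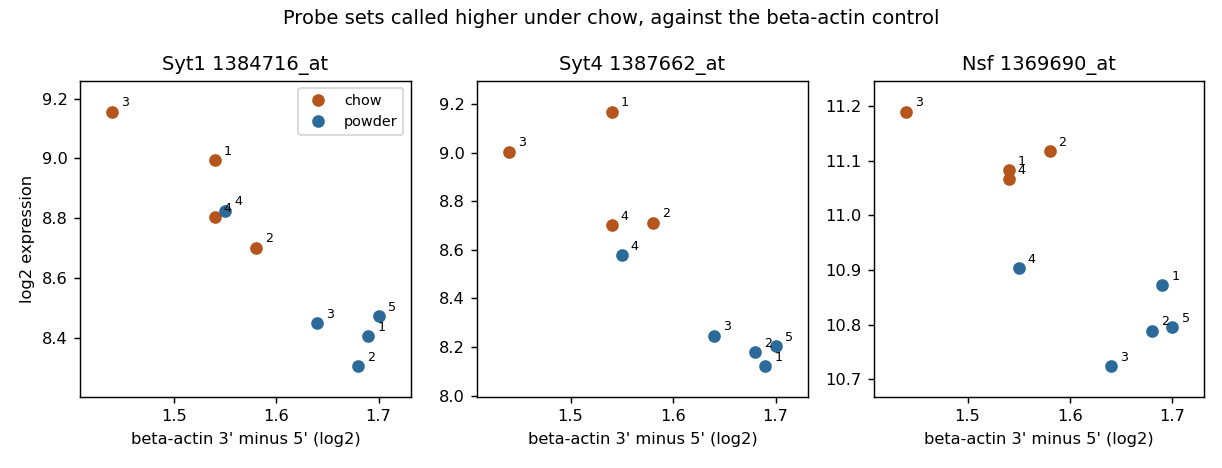
Log2 expression of 3 probe sets called higher under chow against the 3′ minus 5′ log2 difference of the beta-actin control on the same array; each point is 1 array, numbered as in the labels, with chow in orange and powder in blue. Powder 4, at 1.55, lies among the chow arrays on the horizontal axis and is the highest powder array in each panel.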

How the data were processed

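The data were 9 single-colour arrays of rat thalamus RNA, 4 chow and 5 powder, grouped by sample title. Per the labels' protocols, biotin-labelled RNA was made from 100 ng of total RNA. The authors deposited 1 log2 value per probe set and array; that the scale is log2 was read from the values (5.37 to 14.05), and the background correction, summarisation, normalization or centring behind it is not given in the sources used here. Array medians were 7.3907 to 7.3964 under chow and 7.3978 to 7.4019 under powder. No detection calls were used, so no detection limit was set, and the number of arrays limits precision. Depth does not apply.

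From the 31099 probe sets, 57 controls were left out, and the rest were named through the platform annotation (20826 with 1 symbol, 436 with several, 9780 unnamed here). Chow was compared with powder with limma 3.58.1 in R 4.3.3 (lmFit, eBayes, no covariate), over genes and over probe sets, and Benjamini-Hochberg adjusted p under 0.05 was called. Errors are limma standard errors unless SD is stated. Values in the text come from the fit over probe sets unless the fit over genes is named. Exact permutation tests, two-sided, served for the probe set pairs, which were picked after seeing the data, and for the controls. The members, the lists and the 0.01 limit were chosen with earlier results of these data known; members that were called or held an uncompressed probe set were named with values. The alternatives were another normalization, filters on dim or compressed probe sets, a trended robust variance, array weights, a replicate block, the median over probe sets, other thresholds and each array left out. The actin covariate, and for the probe set count the compressed filter and both thresholds, were added after seeing the data. In a test on simulated data (14217 genes, 4 chow and 5 powder arrays), 100 uncompressed genes were changed by 0.2 log2 units and 100 by 0.4. Of these, 28% and 64% were recovered. The data gave 4684 called genes, which sets another cutoff on p. These shares are therefore not the recovery rates of the fit to the data.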

Additional observations from a re-analysis of the deposited data

Results flagged for a closer look

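Dixon's test on the 4 chow or 5 powder values of a probe set singled out 4 of the 48 groups of arrays examined, where chance gives about 1 in 20. Chow 3 was far above the other chow arrays on Nsf 1369689_at (10.60, next 10.36, gap over range 0.84), and chow 1 far below them on Snap25 1387073_at (12.55, next 12.57, gap over range 0.915). Powder 4 was far above the other powder arrays on Syt4 1387662_at (8.58, next 8.25, gap over range 0.725), and powder 5 on Bin1 1367779_at (11.07, next 10.93, gap over range 0.739). Without chow 3 the Nsf probe set remained called, and without powder 4 the Syt4 probe set did.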

How the results depend on the processing

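The dim filter, trended robust variance and array weights changed no count of calls by more than 1.5 times. All genes called numbered 4684. They were 9329 (8329 higher, 1000 lower) after quantile normalization, 13245 (12112 and 1133) with array medians subtracted, 1677 without compressed probe sets, 724 with the actin covariate, 1054 at a difference of at least 0.1, and 11 with the replicate number as a block. Members called higher and lower were 20 and 1 under quantile normalization, 28 and 3 with medians subtracted, 7 and 2 by the median over probe sets, 6 and 5 at an adjusted p under 0.1, 1 and 1 at a difference of at least 0.1, and 0 and 0 with the actin covariate and with the block. Member probe sets called, 14 as reported, were 35, 52, 22 at an adjusted p under 0.1, 7 at a difference of at least 0.1, 9 without compressed probe sets, 1 (Rimbp2 1397267_at) with the actin covariate and 0 with the block. With 1 array left out in turn, all genes called ranged from 3367 to 4413, members higher from 0 to 2, members lower from 1 to 2 and member probe sets from 8 to 12 (8 without powder 1, and 9 without chow 1, chow 3 or powder 3). Subtracting array medians adds the same amount to every difference, and the cause of the other changes was not tested. The labels do not say whether same-numbered arrays are pairs. Their deviations correlated at -0.31, 0.19, -0.34 and -0.16, which cannot decide it, and the block takes 4 of the degrees of freedom. With the block, the 8 called uncompressed member probe sets kept their direction and 0 passed (limma adjusted p from 0.0852 to 0.155).

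Signs turned for Syt4 at the level of genes (0.027 after quantile normalization, 0.0065 with medians subtracted, 0.63 without compressed probe sets, 0.32 by the median over probe sets) and for Syn2 (0.03, 0.0063, 0.26 and 0.28). Without compressed probe sets, and by the median, other probe sets entered these values. Subtracting array medians moved every chow minus powder difference upward by the same amount. The medians were lower under chow (7.3907 to 7.3964) than under powder (7.3978 to 7.4019). The compressed probe sets of Unc13a and Sv2b thereby went from 0.00032 and 4.2e-05 to 0.0069 and 0.0066. The cause under quantile normalization was not tested. Syn2 also turned to 0.0001 without powder 4, on the same compressed probe set. Erc1 turned to 0.02 and 0.0063 under the rescalings and Sv2b to -0.012 after quantile normalization. By the median over probe sets Nsf was at 0.27 and Sncb at 0.0042. With the actin covariate Vamp1 was at -0.0042, Sv2a at -0.027 and Sncb 1369924_at at -0.13. With 1 array left out, uncalled differences also turned sign for Vamp1 (-0.017 to 0.053), Sv2a (-0.0087 to 0.082), Ppfia3 (-0.054 to 0.15), Syn2 (-0.00052 to 0.0001) and Sv2b (-7.9e-06 to 7.2e-05).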

Other observations

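By the platform annotation, 8 of the 22 uncompressed member probe sets were designed from curated RefSeq mRNAs and 14 from other sequences. Of the 8, 1 was called higher under chow and 2 lower, and of the 14, 5 were called higher and the rest were not called by limma. Over all uncompressed probe sets, the 523 designed from curated RefSeq mRNAs had a median log2 difference of 0.039, with 22% called higher and 13.8% lower, and the other 4326 had a median of -0.13, with 15.4% higher and 41.8% lower. Whether the kind of source sequence bears on the members' differences was not tested.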
